A study of Mus musculus with 4 samples.

Results

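The genes described here are 8 short non-coding RNA genes of the mouse, grouped as RNA polymerase III RNAs. They are the Y RNA genes Rny1 and Rny3, the 7SK gene Rn7sk and the RNase MRP gene Rmrp. The others are the RNase P gene Rpph1 and its relatives Rprl1, Rprl2 and Rprl3. All 8 were taken by name, whatever their length, from tables of 128603 transcripts that belong to 51905 genes. The 8 names held 9 transcript rows, since Rprl1 is listed as a pair of overlapping entries. Values are FPKM, that is, fragments counted per unit of transcript length and scaled to the size of the library, in brain RNA. The groups are C57BL/6 mice (B6), CAST/EiJ mice (CAST) and their hybrids, of which F1i is labelled C57BL/6 x CAST/EiJ, while F1r is labelled CAST/EiJ x C57BL/6. All mice are labelled wild type; their age and sex, and which strain was the mother of each hybrid, were not stated. Each of the 4 groups is 1 library, made by pooling left-hemisphere RNA of 5 mice, so the spread between mice is unknown and no difference below could be tested. CAST/EiJ is an inbred strain of wild Mus musculus castaneus origin.

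These RNAs act in particles with proteins. Y RNAs are bound by the Ro protein and by La; 7SK RNA holds the elongation kinase P-TEFb in an inactive complex; RNase P trims the leader of precursor tRNAs, and RNase MRP is a related enzyme that cuts precursor ribosomal RNA. The Y, 7SK, RNase P and RNase MRP RNA genes are known for promoter elements that lie upstream of the transcript, and polymerase III transcripts end at a run of T in the coding strand. Rprl1, Rprl2 and Rprl3 are annotated as RNase P RNA-like genes, and whether polymerase III transcribes them was not tested.

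Sequences and positions are from GENCODE M21 (GRCm38), and all 9 rows have the same start and end there. Both Y RNA genes lie on chromosome 6, Rny3 on the plus strand (47781624 to 47781725) and Rny1 on the minus strand (47788069 to 47788180), with 6343 bases between them. Their full sequences are shown because they ranked the first and the third of all transcripts by mean FPKM; capitals mark the final run of T.
Rny1: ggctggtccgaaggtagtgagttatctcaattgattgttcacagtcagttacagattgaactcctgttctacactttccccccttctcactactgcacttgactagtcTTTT
Rny3: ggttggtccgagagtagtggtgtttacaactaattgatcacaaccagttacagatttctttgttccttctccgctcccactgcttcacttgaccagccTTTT
The pair was 71.4% identical over 112 aligned columns and shared no 31-base word. Both end in TTTT, which 3.18% of the 17764 transcripts of 60 to 400 bases do. Rny1 shares 37.8% of its 31-base words with Gm26168, an annotated misc_RNA gene on chromosome 6, while no word of Rny3 or Rmrp was found in another gene.

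Rpph1 lies on the minus strand of chromosome 14 (50807449 to 50807767), Rprl3 on the minus strand of chromosome 8 (3803069 to 3803358) and Rprl2 on the plus strand of chromosome 3 (22251374 to 22251663). These sequences are shown because the difference between the strains was in Rpph1 and Rprl3. Capitals mark a stretch of 21 bases that stands in 2 tandem copies, from position 182 to 223, in Rpph1 (positions 1 to 300 of 319 are shown), and the best match to it in the others.
Rpph1: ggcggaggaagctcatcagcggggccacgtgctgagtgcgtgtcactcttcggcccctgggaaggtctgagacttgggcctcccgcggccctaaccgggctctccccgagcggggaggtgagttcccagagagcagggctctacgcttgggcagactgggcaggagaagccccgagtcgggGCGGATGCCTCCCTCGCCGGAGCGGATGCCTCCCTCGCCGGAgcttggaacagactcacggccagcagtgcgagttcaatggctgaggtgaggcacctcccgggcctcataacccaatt
Rprl3: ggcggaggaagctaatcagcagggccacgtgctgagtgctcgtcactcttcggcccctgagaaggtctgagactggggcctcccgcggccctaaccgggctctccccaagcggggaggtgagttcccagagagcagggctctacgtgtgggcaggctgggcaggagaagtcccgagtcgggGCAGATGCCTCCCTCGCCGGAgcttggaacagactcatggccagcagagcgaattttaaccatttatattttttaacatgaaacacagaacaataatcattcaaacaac
Rprl2: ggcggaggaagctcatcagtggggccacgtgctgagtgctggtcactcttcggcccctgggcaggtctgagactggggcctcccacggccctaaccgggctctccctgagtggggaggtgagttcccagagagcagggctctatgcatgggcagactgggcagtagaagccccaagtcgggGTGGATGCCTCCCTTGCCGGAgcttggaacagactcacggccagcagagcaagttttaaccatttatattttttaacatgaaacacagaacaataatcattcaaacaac
The stretch occurs once in each of the 3 relatives, with 1 mismatch in Rprl3 and 2 in Rprl2 and in Rprl1. A tandem unit of at least 20 bases was present in 0.805% of transcripts of 60 to 400 bases. The first 234 bases of Rprl3 aligned to Rpph1 over 255 columns with 85.9% identity, and the 21 gap columns equal the length of 1 unit. The same part was 85.5% identical in Rprl2 and 83.5% in Rprl1 (chromosome 6, 69326844 to 69327170, minus strand). From position 235 the relatives carry a tail that begins with TTTT and holds a further run of T at position 250; Rpph1 has no TTTT. On the transcript strand TTTT is present in 48.3% of transcripts of 60 to 400 bases. A shared TTTT is a match of letters and says nothing about where transcription ends. Over their full annotated length, Rprl3 and Rprl2 were 92.1% identical and shared a run of 56 bases.

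Rn7sk (chromosome 9, 78175303 to 78175633, minus strand) shared words with more annotated genes than any other member did. Of its 31-base words 72.8% recur among 25 other annotated genes, all of the misc_RNA type, of which 4 share at least 20% of the words. Positions 32 to 331 of its sequence are shown with capitals on the 52 bases that lie in no shared word. A base outside the shared words need not itself differ from the copies, to which Rn7sk was not aligned.
Rn7sk: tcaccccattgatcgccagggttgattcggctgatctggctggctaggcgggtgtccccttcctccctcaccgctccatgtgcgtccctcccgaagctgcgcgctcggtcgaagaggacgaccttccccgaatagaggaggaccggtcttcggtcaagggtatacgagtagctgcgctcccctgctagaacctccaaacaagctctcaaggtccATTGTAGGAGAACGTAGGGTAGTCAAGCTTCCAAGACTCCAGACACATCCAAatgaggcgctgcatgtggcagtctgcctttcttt
Rmrp lies on the minus strand of chromosome 4 (43492788 to 43493058). A transcript of Ccdc107 on the opposite strand overlaps it. The kit kept strand, per the labels' protocols, but whether reads were counted by strand was not stated; Ccdc107 was at 17.5 to 19.3 FPKM, far below Rmrp. In GENCODE M21 a Ccnb1ip1 transcript on the same strand covers 70.2% of the words of Rpph1; it is not among the rows used here.

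Rny3 had the highest value of all transcripts in every library, at 511151 FPKM in B6 and 486506 in CAST, with the hybrids at 590295 (F1i) and 472099 (F1r). Rn7sk came next in every library, at 233564, 191220, 229605 and 185734 FPKM in the same order. Rny1 came after it in every library, at 171574, 94492, 151975 and 115726 FPKM. The ranges of these 3 genes did not overlap, and CAST and F1r were the lower libraries for each of them. Rmrp had 42482 FPKM in B6 and 26987 in CAST, with the hybrids at 39588 (F1i) and 35747 (F1r). Rpph1 was at 43312, 6036, 17597 and 14554 FPKM, a range that overlaps that of Rmrp. In B6 the MRP and P RNAs were therefore at about the same level, and in the other libraries Rmrp was the higher. For Rmrp and Rpph1 too, CAST and F1r were the lower libraries. Rprl3 was listed at 0 in B6 and was at 1907 FPKM in CAST, 1671 in F1i and 1180.5 in F1r. Rprl2 was listed at 0 in B6 and F1r, and at 0.342 FPKM in CAST and 0.318 in F1i. Both rows of Rprl1 were listed at 0 in all 4 libraries. The values of Rprl2 lie among the 10 lowest values above 0 of rows of 280 to 300 bases (0.298 to 0.390 FPKM in CAST and 0.268 to 0.346 in F1i), which is the level of about 1 fragment. Rprl3 in CAST was 5341 times the median of those 10 values, 5293 times in F1i and 3641 times in F1r.

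**Figure D1:**
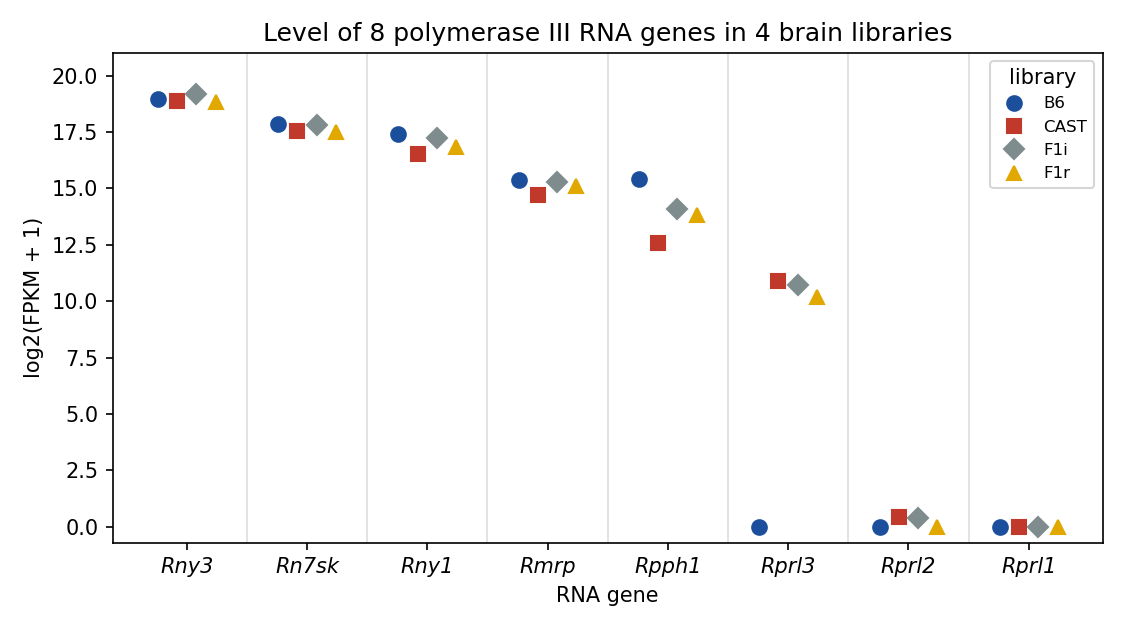
Level of each of the 8 genes as log2(FPKM + 1) on the vertical axis, with 1 point for each library (B6, CAST, F1i, F1r) and no error since each is 1 pool. Rny3, Rn7sk, Rny1 and Rmrp lie close together over the libraries, Rpph1 spreads from 6036 to 43312 FPKM, and Rprl3 is at 0 in B6 only.

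FPKM divides fragments by transcript length, so short RNAs take a larger share of it than of fragments. The 8 genes held from 42.5% to 43.9% of all FPKM in a library. On FPKM times annotated length they held 16.0% in B6 and 12.9% in CAST, with the hybrids at 15.7% (F1i) and 13.0% (F1r). On that scale the order of the first pair turned: Rn7sk held 5.83% to 7.10% of the total, Rny3 4.56% to 5.55%, Rny1 1.02% to 1.76% and Rmrp 0.706% to 1.06%. These are not shares of fragments. In B6, 1 fragment was worth 23.6 in FPKM times length in long transcripts. The lowest values of rows of 280 to 300 bases, about 1 fragment each, had a median of 0.231 FPKM in B6. Multiplied by their length these exceed 23.6, so short RNAs keep an inflated share. Levels of different genes are therefore comparable only roughly. The same gene has the same annotated length in every library, but whether the length correction of short RNAs was equal between libraries was not tested.

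The summed FPKM of the other transcripts of 60 to 400 bases also varied, at 1016477 in B6 and 712165 in CAST, with the hybrids at 978965 (F1i) and 783063 (F1r). It was thus lower in CAST and F1r, as Rny3, Rn7sk, Rny1, Rmrp and Rpph1 were, while Rprl3 was highest in CAST. Transcripts of more than 400 bases summed to 334606 to 338628 FPKM in the 4 libraries. The part that the yield of short RNA plays in the values below was not tested. Relative to B6, depth as read from the worth of 1 fragment in long transcripts was 0.726 (CAST), 0.817 (F1i) and 0.723 (F1r). As a check of the tissue, Snap25, a synaptic protein gene, was at 499 to 635 FPKM, and Alb, a liver gene, at no more than 0.272.

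CAST against B6 asks how the strains differ. Rpph1 was 7.18-fold lower in CAST than in B6, a difference of -2.84 in log2(FPKM + 1), and Rprl3 was listed at 0 in B6 and was at 1907 FPKM in CAST. Rny1 (-0.86), Rmrp (-0.65), Rn7sk (-0.29) and Rny3 (-0.07) were less than 2-fold apart, and the sign of the last pair depended on the scaling. In bulk brain RNA, fewer cells that make an RNA and less of it per cell cannot be told apart. Of the 8 genes, 6 passed a filter of a mean FPKM of at least 1, and 2 of these 6 were at least 2-fold apart, Rprl3 higher and Rpph1 lower. Among all 14139 genes that passed the filter, 6.22% were at least 2-fold apart (3.25% higher and 2.98% lower in CAST). Among the 623 of 60 to 400 bases it was 39.2% (19.3% higher and 19.9% lower), and among the 101 of these with a mean FPKM of at least 1000, a limit chosen after the values were seen, 34.7%. A count of 2 in 6 is near the share of short genes, so the number is no result about these RNAs. The median difference of the 6 genes was -0.47, beside 0.03 for all genes, 0.00 for short genes and -0.24 for the abundant short genes. Of the 244 short genes at least 2-fold apart, 131 were at 0 in B6 or CAST, and 11 short genes, Rprl3 among them, were at 0 in B6 and at 1 FPKM or more in the other 3 libraries, while 15 were so for CAST.

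**Figure D2:**
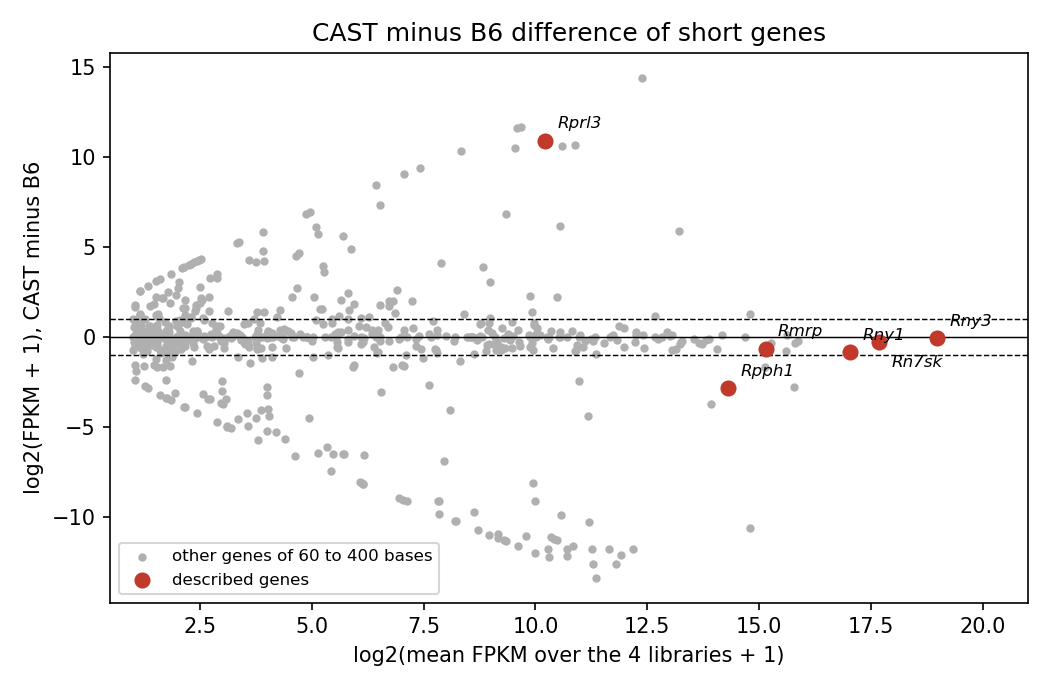
Difference of log2(FPKM + 1) between CAST and B6 on the vertical axis against log2 of the mean FPKM + 1 for genes of 60 to 400 bases; grey points are the other short genes, red points the 6 described genes that passed the filter, and dashed lines mark 2-fold. Rpph1 (-2.84) and Rprl3 lie outside the lines, and many grey points do too.

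Small differences depended on how the libraries were scaled. When total FPKM of all transcripts was made equal between libraries, the median difference of all genes moved up by 0.30; Rny3 (0.27) and Rn7sk (0.06) then lay above 0, and Rny1 (-0.52), Rmrp (-0.31) and Rpph1 (-2.50) below it. Over the scalings tried, Rny3 lay between -0.21 and 0.44, Rn7sk between -0.43 and 0.22, Rmrp between -0.79 and -0.14, and Rny1 between -1.0005 and -0.35. With median-ratio scaling Rny1 thereby just reached 2-fold. For Rny3 and Rn7sk the sign of the difference is set by the scaling. Rpph1 lay between -2.98 and -2.33 under every scaling.

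**Figure D3:**
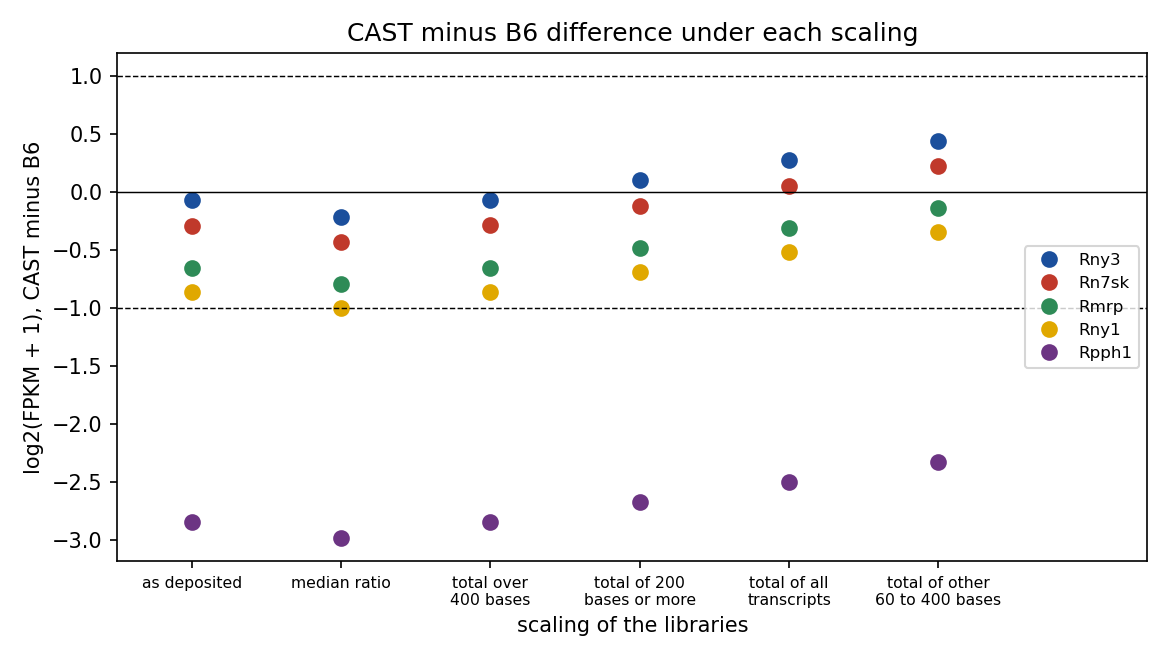
Difference of log2(FPKM + 1) between CAST and B6 on the vertical axis for 5 genes under 6 scalings of the libraries on the horizontal axis; dashed lines mark 2-fold. Rny3 and Rn7sk cross 0, Rny1 runs from -1.0005 to -0.35, and Rpph1 stays at or below -2.33.

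A ratio of 2 RNAs within a library does not depend on scaling. Rny1 relative to Rny3 was 0.336 in B6 and 0.194 in CAST, with the hybrids at 0.257 (F1i) and 0.245 (F1r), so the reciprocal hybrids lay close together and between the strains. Rn7sk relative to Rny3 was 0.457 in B6 and 0.389 to 0.393 in the other 3 libraries. Rpph1 relative to Rmrp was 1.02 in B6 and 0.224 in CAST, with the hybrids at 0.445 (F1i) and 0.407 (F1r), again with the hybrids alike and between the strains. Rmrp relative to Rny3 was 0.0831, 0.0555, 0.0671 and 0.0757 in the same order, also between the strains in both hybrids. Relative to Rn7sk, however, Rmrp was 0.182, 0.141, 0.172 and 0.192, with F1r above both strains. The place of Rmrp in F1r thus depended on the RNA it was divided by. A ratio shows that members changed unequally, not which of them changed.

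Since Rprl3 resembles Rpph1, the RNase P RNAs were also viewed together. Rprl3 was at 31.6% of the FPKM of Rpph1 in CAST, 9.50% in F1i and 8.11% in F1r. As a share of all FPKM times length, Rpph1 held 1.27% in B6 and 0.186% in CAST, with the hybrids at 0.518% (F1i) and 0.440% (F1r), and Rprl3 0.0533% in CAST, 0.0447% in F1i and 0.0324% in F1r. What Rprl3 had in CAST was thus far smaller than what Rpph1 lacked there. With all 4 RNase P RNA genes summed as FPKM times length, CAST minus B6 was -2.48, against -2.84 for Rpph1 alone. Rpph1 and Rprl3 share 13 of their 31-base words, which number 289 in Rpph1 and 260 in Rprl3. Whether reads were placed on a CAST genome and how reads with several matches were treated were not stated. The part that placement of CAST reads on these similar sequences plays in both values was not tested, and both are uncertain.

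**Figure D4:**
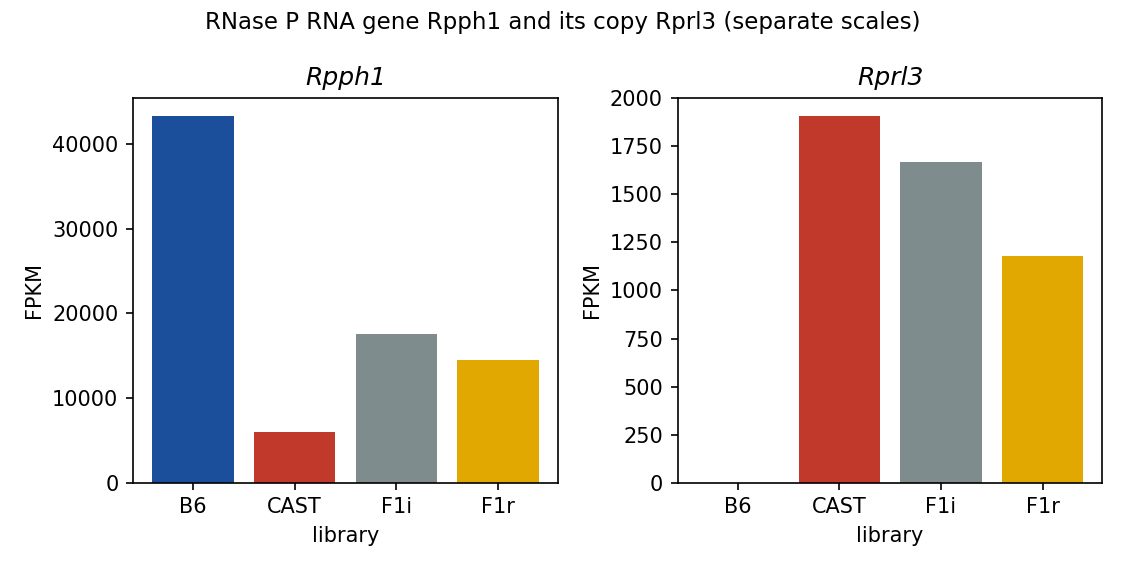
FPKM of Rpph1 (left) and Rprl3 (right) on the vertical axes, which differ in scale and start at 0, with 1 bar for each library and no error. Rpph1 is highest in B6 (43312) and lowest in CAST (6036), and Rprl3 is at 0 in B6 and highest in CAST (1907).

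Adding the annotated copies of the other RNAs could hardly move their differences, since the copies were far lower in value. Whether reads shared with copies affect the values of the members was not tested. The 7SK copies with the highest values were Gm24447 on chromosome 15 (1162 to 1342 FPKM), Gm26035 on the X chromosome (684 to 760), Gm26315 on chromosome 2 (149 to 213) and Gm24146 on chromosome 5 (17.8 to 22.3). Each shares from 31.6% to 70.1% of the words of Rn7sk, and their values are uncertain. Summed with them as FPKM times length, the CAST minus B6 difference of Rn7sk was -0.29. The Rny1 copy Gm26168 had 158 FPKM in B6 and 69.5 in CAST, with the hybrids at 421 (F1i) and 65.4 (F1r), and the difference of Rny1 summed with it was -0.86.

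The hybrids were set between the strains to ask whether their level was intermediate. Placed between B6 at 0 and CAST at 1, Rpph1 lay at 0.690 in F1i and 0.771 in F1r, and Rprl3 at 0.877 and 0.619. Both hybrids were on the CAST side of the middle for both genes. On log2(FPKM + 1) Rpph1 lay at 0.457 and 0.553, near the middle; positions of Rprl3 on that scale rest on the 0 in B6 and are not read. Rny1, whose parents were less than 2-fold apart, lay at 0.254 in F1i and 0.725 in F1r. These positions depended on the scaling. As a share of total FPKM, Rny1 held 7.28% in B6 and 5.09% in CAST, with the hybrids at 6.47% (F1i) and 5.96% (F1r). On that scale the hybrids still lay between the parents but nearer each other. Rmrp, whose parents were also less than 2-fold apart, lay at 0.187 in F1i and 0.435 in F1r, on the B6 side. The position of Rmrp in F1r depended on the scaling. As a share of total FPKM, Rmrp held 1.84% in F1r, above its share in either parent (1.80% for B6, 1.45% for CAST). Its share of 1.69% in F1i still lay between the parents. For Rny3 and Rn7sk the order of the parents moved with the scaling, and no position is read. Relative to the mean of the parents, Rpph1 was at 0.713 in F1i and 0.590 in F1r, and Rprl3 at 1.75 and 1.24. No member was 2-fold apart between the mean of the hybrids and the mean of the parents, where 1.41% of all genes and 29.1% of short genes were. The differences were -0.62 for Rpph1, 0.58 for Rprl3, 0.12 for Rmrp, 0.09 for Rny3, 0.01 for Rny1 and -0.03 for Rn7sk. That of Rpph1 was -0.01 when log2 values were averaged in place of FPKM. Their median was 0.05, beside -0.01 for all genes and 0.05 for short genes. The size of the differences also depended on the scaling. When rescaled to the other transcripts of 60 to 400 bases, that of Rprl3 was 0.26 and that of Rpph1 was -0.48.

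F1r against F1i asks what the direction of the cross changes. In FPKM as deposited every member that passed the filter was lower in F1r, but by little and with signs that other scalings turned for 3 of them, with differences of -0.50 for Rprl3, -0.39 for Rny1, -0.32 for Rny3, -0.31 for Rn7sk, -0.27 for Rpph1 and -0.15 for Rmrp. The share of features below 0 was 42.1% of all genes, 51.5% of short genes and 72.3% of the abundant short genes. No member was 2-fold apart, where 1.58% of all genes and 27.3% of short genes were. The median of the 6 was -0.31, beside 0.03 for all genes, -0.02 for short genes and -0.23 for the abundant short genes. With total FPKM made equal between libraries, where the median of all genes moved up by 0.24, the differences of Rny3 (-0.05), Rn7sk (-0.03) and Rpph1 (-0.0005) were near 0 and that of Rmrp turned to 0.13. When rescaled to the other transcripts of 60 to 400 bases, Rn7sk (0.02), Rpph1 (0.05) and Rmrp (0.17) lay above 0. Lower levels of these RNAs in F1r and a lower yield of short RNA in that library cannot be told apart.

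The mRNAs of the proteins that bind these RNAs or transcribe their genes were less than 2-fold apart on log2(FPKM + 1) in every comparison, where Gtf3a lay just inside the limit. Among all genes, 6.22% were 2-fold apart between CAST and B6, 1.58% between F1r and F1i, and 1.41% between hybrids and parents. Counts of 0 in this list and those below are near such shares, so they are no result about these mRNAs. Those of 11 RNase P and MRP proteins had a median CAST minus B6 difference of 0.02, and 0 of 11 were 2-fold apart on that scale in any of the 3 comparisons. Pop5, a core subunit, had the highest level, at 78.0 FPKM in B6 and 88.8 in CAST, with the hybrids at 77.1 (F1i) and 82.2 (F1r). Rpp25 (7.97 FPKM in B6 and 4.76 in CAST), Pop1 (3.12 and 1.71) and Rpp21 (20.5 and 19.7) were lower in value in CAST, and Rpp30 (5.45 and 6.74) was higher. Pop1, which binds the RNA, had 2.08 FPKM in F1i but 3.85 in F1r, while Rpp25 was at 7.03 and 6.22.

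The 8 mRNAs of the 7SK particle and of P-TEFb had a median of 0.14, and 0 were 2-fold apart in any comparison. Hexim1, the inhibitor that 7SK brings to the kinase, had 16.9 FPKM in B6 and 19.8 in CAST, with the hybrids at 17.8 (F1i) and 18.2 (F1r). Cdk9, the kinase itself, was at 18.6 to 20.6 FPKM over the libraries, and Mepce, which caps 7SK, at 11.7 to 13.1. Larp7, which binds the 3′ end of 7SK, was at 3.94 to 4.27 FPKM. Of 5 measured Ro, La and other RNA-binding proteins 0 were 2-fold apart; Trove2, which encodes Ro, was at 13.0 to 14.8 FPKM, and Ssb, which encodes La, at 30.4 to 33.8.

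For polymerase III itself, 0 of 13 subunit mRNAs and 0 of 19 mRNAs of its transcription factors were 2-fold apart on log2(FPKM + 1) in any comparison. The subunit median for CAST minus B6 was -0.18, with values from -0.49 (Polr3g) to 0.43 (Polr3a). The factor median was 0.14, from -0.89 (Gtf3a, the 5S gene factor, 8.41 FPKM in B6 and 4.06 in CAST) to 0.48 (Zfp143). By FPKM alone Gtf3a was 2.07-fold lower in CAST, and with a pseudocount of 0.1, tried after the values were seen, its difference was -1.03 and 1 of the 19 factors was 2-fold apart. Brf2, a factor that polymerase III uses at genes with upstream promoter elements, had 7.55 FPKM in B6 and 4.38 in CAST, with the hybrids at 6.21 (F1i) and 6.04 (F1r). Snapc5, a subunit of the complex that binds upstream elements, was at 9.70, 5.36, 8.18 and 7.70 FPKM, while Snapc4 was at 7.59, 10.8, 6.85 and 8.12. Subunits of the same complex thus differed in direction in value. Maf1, a repressor of polymerase III, was at 41.1, 33.7, 43.2 and 37.7 FPKM.

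**Figure D5:**
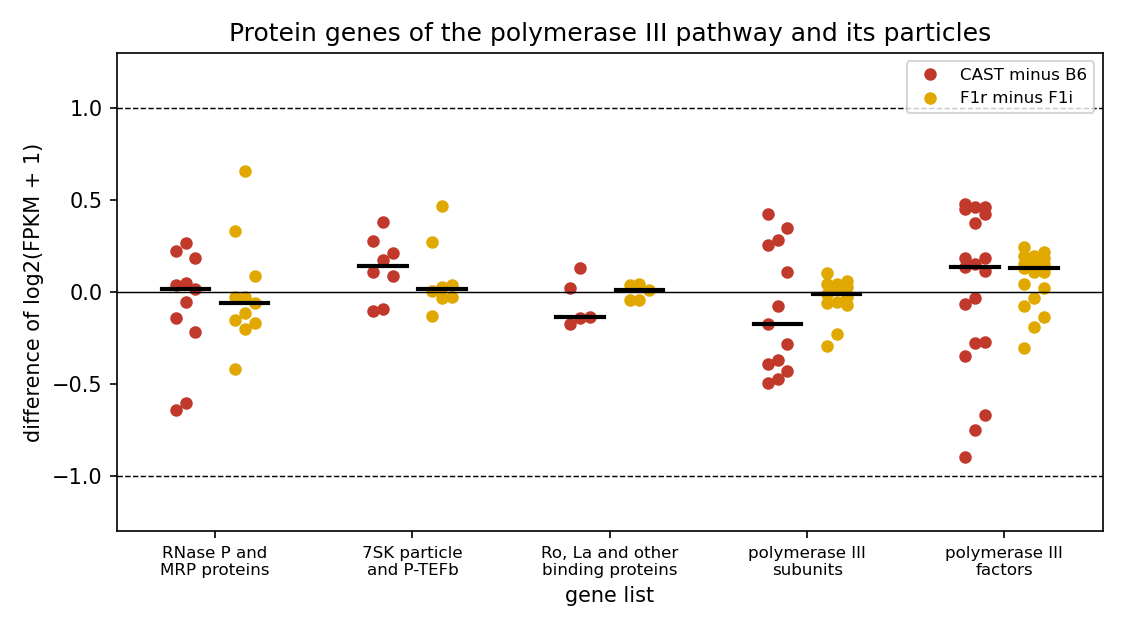
Difference of log2(FPKM + 1) for the measured mRNAs of 5 protein lists, with 1 point for each gene (red for CAST minus B6, yellow for F1r minus F1i), black bars for medians and dashed lines for 2-fold. On this scale no point reaches 2-fold, and the lowest is Gtf3a (-0.89).

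Other short RNAs gave a mixed picture. Of 186 further polymerase III RNA genes listed in the tables, 173 were at 0 in every library, most of them 5S rRNA copies, and 13 passed the filter. The signal recognition particle RNA genes Rn7s1 (3242 to 4091 FPKM), Rn7s2 (4570.4 to 5966) and Rn7s6 (17017 to 19591) were less than 2-fold apart in all 3 comparisons. Vaultrc5, the vault RNA gene, had 189 FPKM in B6 and 92.7 in CAST, with the hybrids at 97.8 (F1i) and 170.3 (F1r), and was at least 2-fold lower in CAST. Among the 5S copies, n-R5s185 was at 65.3, 20.8, 21.8 and 426 FPKM and n-R5s115 at 36.0 in CAST and listed at 0 elsewhere; reads of these near-identical copies cannot be told apart, and the values are uncertain. Between F1r and F1i, 3 of the 13 were higher in F1r and 2 lower, and these were all 5S copies. Between the means of hybrids and parents, 5 were higher in the hybrids and 1 lower. Among short genes, 39.2% were 2-fold apart between CAST and B6, 27.3% between F1r and F1i, and 29.1% between hybrids and parents. Counts in these small lists, here and below, are therefore no result about these RNAs. Rnu73b, grouped here with the short polymerase II RNAs, was listed at 0 in 3 libraries and had 3828 FPKM in F1r. The part that read placement and length correction play in that value was not tested, and it is uncertain. Rnu1b1 (2.74 FPKM in F1i and 17.0 in F1r) and Rnu1b2 (listed at 0 in F1i and 2.83 in F1r) were also at least 2-fold higher in F1r. Of 9 short polymerase II RNAs that passed the filter, 2 were higher in CAST: Rnu3a, a U3 gene summed over its entries, at 636 FPKM in B6 and 17114 in CAST, with the hybrids at 11216 (F1i) and 12422 (F1r), and its relative Rnu3b4 at 15.7, 67.9, 57.2 and 52.9. A low value in B6 with CAST and both hybrids high was thus seen beyond Rprl3.

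By pattern over the 4 libraries, the named genes nearest to Rpph1 were Serpinb1a, at a Euclidean distance of 0.34 on log2(FPKM + 1) centred on each gene's mean, Rpl21-ps8 (0.38) and Usmg5 (0.42). Serpinb1a had 5.87 FPKM in B6 and 0.308 in CAST, with the hybrids at 2.36 (F1i) and 1.99 (F1r). For Rprl3 the nearest was Snora17 at a distance of 4.05, with 0 in B6 and 47.7, 76.7 and 78.7 FPKM in CAST, F1i and F1r; no named gene came close. With 4 libraries, likeness of pattern is a description only.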

How the data were processed

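FPKM per transcript is what the authors deposited, in 1 table per library with gene, position and length. The submitters' processing notes name HISAT2, Cufflinks 2.2.1, Cuffdiff, Trimmomatic 0.36 and bcl2fastq 2.20, with mm9 as the build. The positions in the tables are nevertheless those of GRCm38, as 97.2% of the transcripts found in GENCODE M21 have the same start and end there. Rows were summed per gene, and genes whose FPKM averaged 1 or more were compared by log2(FPKM + 1); fold changes on this scale understate the change of low genes. The hybrid comparison used log2 of the mean FPKM + 1. No test is possible with single libraries, and a difference of 1 or more in size was counted as 2-fold. The tables hold no read counts. Relative depth was read from the most common low value of FPKM times length in genes with 1 transcript of 1500 to 6000 bases; absolute depth is unknown, so no interval is given.

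Every 31-base word of a member was searched in the GENCODE M21 transcripts, and identity came from pairwise alignment with free end gaps in Biopython 1.88. Promoter sequences of the members were not used here. Alternatives were a pseudocount of 0.1, no filter, a mean FPKM of at least 5, other scalings, FPKM times length with a pseudocount of 100, sums with genes that share at least 20% of the words, and single transcripts; 5 more were added after the data were seen. The named genes were the 8 members, their copies, the nearest patterns, and list genes that were 2-fold apart or among the highest; Rpp25, Pop1, Rpp30, Polr3g, Polr3a, Zfp143, Brf2, Snapc5, Snapc4, Gtf3a and Larp7 were named after their values were seen. Members and lists were chosen with earlier results of these data known. The software was pandas 2.3.3, numpy 2.4.6 and matplotlib 3.10.9 under Python 3.11.15, and the calls were tested on simulated data. That simulation used the same small noise for genes of all lengths, so it does not show how reliable calls are in short genes.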

Additional observations from a re-analysis of the deposited data

How the results depend on the processing

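No paired analysis was possible because each group is 1 library. Rpph1 and Rprl3 remained at least 2-fold apart between CAST and B6, and no member was 2-fold apart between F1r and F1i, under every pseudocount, filter, scaling and length setting tried. With the RNase P RNA genes summed as 1, the members 2-fold apart between CAST and B6 went from 2 to 1, by construction. With median-ratio scaling they were 3, Rny1 being the third at -1.0005. When log2 values were averaged in place of FPKM, 1 member, Rprl3, was 2-fold higher in the hybrids (5.01), a value that rests on the 0 in B6. Position alternatives on the log2 scale moved 5 of 12 positions by more than 0.1. Depth limits Rprl2, whose values stand for about 1 fragment, and the 0 values of Rprl1 and of Rprl3 in B6 are as listed in the tables. A pseudocount of 0.1 took the polymerase III factors 2-fold apart between CAST and B6 from 0 to 1 (Gtf3a, -1.03), and left the other protein lists at 0.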
